A study of Mus musculus with 35 samples.

Results

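The subject here is transcription in cultured mouse neural progenitor cells from stretches of the genome to which the authors' assembly gave no gene name. Loci were chosen from the deposited batch 1 assembly and table by 3 conditions: no exon carried a gene name, the locus was not excluded by the authors' software as too deep to quantify, and its mean over the 9 libraries was at least 0.5 CPM (fragments per 1000000 of the library total). These conditions were met by 3677 of the 32572 loci in the table and of the 8846 loci of any level without a known gene. For brevity they are called unnamed loci below. The level that chose them is an average over all genotypes, so levels and genotype differences were both read from the libraries that selected them.

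The study used neural progenitors from embryos of 3 Mettl14 genotypes: wild type (WT), 1 lost allele (Het) and both lost (KO). Mettl14 is part of the enzyme complex that methylates adenosines in messenger RNA at N6, a modification called m6A. Batch 1 of the RNA sequencing had 3 WT, 3 Het and 3 KO libraries, each from a line with its own number in the labels, and batch 3 had 2 WT and 2 KO libraries from other lines. Peak lists cover m6A immunoprecipitation in WT cells and the histone marks H3K27ac and H3K27me3 in 2 WT and 2 KO lines, whose numbers (532 and 541, 530 and 534) are those of batch 3. The protocols describe a floxed allele, a germ-line deletion made with EIIa-Cre and a brain deletion made with nestin-Cre, while the sample labels state the genotype alone, so which Cre the KO lines carried is not given in the sources used here. The RNA protocol names purification of polyadenylated RNA and depletion of ribosomal RNA, and the labels give no strand information for the libraries.

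Transcripts outside annotated genes are of several known kinds. Promoters and enhancers are transcribed in both directions, transcription can continue past the end of a gene, introns persist in nuclear RNA, and long noncoding RNAs or long 5′ parts of known genes can be missing from an annotation. H3K27ac marks active promoters and enhancers, H3K27me3 is the mark of Polycomb repression, and m6A is placed mostly on exons of spliced messenger RNA.

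The libraries held 14.1 to 20 M assigned fragments in batch 1 and 14.9 to 17.5 M in batch 3. Mettl14 itself read 23.7, 24.9 and 22.5 CPM in WT, 24.4, 22.8 and 24.3 in Het and 21.4, 18.9 and 21.2 in KO (log2 fold change -0.21, adjusted p = 0.058 by edgeR), a sum over the whole locus that does not resolve the deleted part and so does not check the labels. All 10 neural progenitor markers were above 1 CPM, and their summed level was 7810 to 8580 CPM in WT and 4410 to 4860 in KO. Markers of neurons summed to 1140 to 1180 CPM in WT and 927 to 1100 in KO, and those of oligodendrocytes to 453 to 544 and 268 to 294. The 5 fibroblast and pericyte markers summed to 0.829 to 1.20 CPM in WT and 6.0 to 7.71 in KO, with 1 of them at 0, and the 5 microglial markers stayed between 1.02 and 1.87 in all 9 libraries. Low sums of other cell types were also higher in KO without overlap: 0.701 to 1.46 CPM in WT and 2.66 to 3.11 in KO for 3 embryonic stem cell markers, 1.99 to 2.49 and 2.96 to 4.96 for 4 endothelial markers, and 4.09 to 5.29 and 6.20 to 7.33 for 4 erythroid markers, with 1, 1 and 2 of them at 0. Astrocyte markers summed to 212 to 276 CPM in WT, 349 to 433 in Het and 126 to 290.0 in KO. Their part in the results below was not tested, and in bulk RNA fewer cells of a type and less RNA per cell cannot be told apart.

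Sequence can be shown where an unnamed locus starts at a gene start of the RefSeq table. Of the 243 unnamed loci with an assembled strand, 31 began within 100 bases of a RefSeq start on the same strand. The 250 bases before that start follow for 4 of them, 5′ to 3′ on the transcribed strand, from RefSeq on GRCm38.p6: those of the 2 such loci with the most fragments, and of the 2 with the most fragments among such loci called in the same direction in both batches. Capitals mark, where present, the CCAAT box and the GC box whose letters are GGGCGG, each read on either strand.
Gm4258, chr1:137898272-137898521, plus strand, before XLOC_000433: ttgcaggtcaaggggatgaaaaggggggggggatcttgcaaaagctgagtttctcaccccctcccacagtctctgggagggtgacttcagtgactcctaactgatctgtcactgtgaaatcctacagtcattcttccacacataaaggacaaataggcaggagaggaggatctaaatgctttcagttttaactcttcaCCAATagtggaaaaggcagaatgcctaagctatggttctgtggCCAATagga
Lsamp, chr16:39984114-39984363, plus strand, before XLOC_010651: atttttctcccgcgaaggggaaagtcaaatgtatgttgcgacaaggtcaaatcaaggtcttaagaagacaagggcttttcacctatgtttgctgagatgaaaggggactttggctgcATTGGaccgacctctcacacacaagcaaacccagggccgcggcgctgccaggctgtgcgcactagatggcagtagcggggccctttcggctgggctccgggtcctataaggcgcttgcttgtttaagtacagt
Zfp141, chr7:42505754-42506003, minus strand, before XLOC_026587: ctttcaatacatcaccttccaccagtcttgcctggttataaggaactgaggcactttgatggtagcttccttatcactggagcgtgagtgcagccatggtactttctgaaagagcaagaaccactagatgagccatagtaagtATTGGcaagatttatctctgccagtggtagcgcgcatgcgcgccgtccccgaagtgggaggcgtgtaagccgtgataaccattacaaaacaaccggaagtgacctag
D730003I15Rik, chr1:191224204-191224453, plus strand, before XLOC_000648: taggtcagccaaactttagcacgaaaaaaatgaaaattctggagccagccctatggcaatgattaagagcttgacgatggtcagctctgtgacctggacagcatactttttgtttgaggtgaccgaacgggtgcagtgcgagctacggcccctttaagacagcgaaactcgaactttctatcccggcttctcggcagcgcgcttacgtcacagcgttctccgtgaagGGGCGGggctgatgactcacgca

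The starts of these 4 loci lie 1, 20, 67 and 38 bases from the RefSeq starts, in the order printed. The window before Gm4258 holds 0 CG pairs, and those before Lsamp, Zfp141 and D730003I15Rik hold 12, 10 and 17, against a median of 11 over the 31 such windows and 6 over the 32851 windows of the RefSeq table. GGGCGG or CCGCCC occurs in 14 of the 31 windows (45.2%) and in 32.7% of all windows, CCAAT or ATTGG in 13 (41.9%) and 33.8%, and TATAAA or TTTATA in 4 (12.9%) and 12.4%. These are matches of letters in these windows and say nothing of a factor.

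Of the 8 unnamed loci with the most fragments, 3 lay in 1 stretch before a pair of microRNA genes. XLOC_001710 (chr1:137935341-137965489) ended 113 bases upstream of the known-gene locus that holds Mir181a-1 and Mir181b-1, and with XLOC_001709 and XLOC_000433 it lay in the RefSeq span of the long noncoding RNA Gm4258, which covered 91.8% of XLOC_001710 and all of the other two. The mature microRNAs are shown because their genes adjoin these loci, with the seed (bases 2 to 8) in capitals. The mature miR-181a-5p and miR-181b-5p share the seed ACAUUCA, and miR-9-5p, whose gene Mir9-2 adjoins a further pair of unnamed loci described below, has another.
miR-181a-5p: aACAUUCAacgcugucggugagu
miR-181b-5p: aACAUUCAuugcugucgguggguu
miR-9-5p: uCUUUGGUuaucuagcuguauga

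XLOC_001710 read 323, 407 and 412 CPM in WT, 345, 377 and 424 in Het and 448, 441 and 496 in KO. All 3 KO libraries were above the WT libraries by a small margin (log2 fold change 0.28 ± 0.10 SE, adjusted p = 0.028 by edgeR). XLOC_001709 read 190, 207 and 209 CPM in WT and 237, 227 and 260 in KO (0.26 ± 0.071, adjusted p = 0.0061). XLOC_000433, a spliced locus that starts by the RefSeq start of Gm4258, read 104, 136 and 134 CPM in WT and 138, 144 and 160 in KO. This change did not pass the edgeR test (0.24 ± 0.10, adjusted p = 0.06). XLOC_001709 and XLOC_001710 have no strand, so it is not known whether they belong to the same transcript. The known-gene locus holding the 2 hairpins rose by more (0.55, adjusted p = 0.003). These loci are long, and per length the order differs: the authors' mean FPKM in WT was 12 for XLOC_001710, 8.93 for XLOC_001709 and 22.1 for XLOC_000433.

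A pair of the most abundant loci lay inside Maml2, a coactivator of Notch signalling. XLOC_030799 (chr9:13546875-13579391) read 156, 166 and 191 CPM in WT and 231, 218 and 232 in KO (log2 fold change 0.41 ± 0.12, adjusted p = 0.016), and XLOC_029460 rose by 0.36 ± 0.098 (adjusted p = 0.0067), beside 0.25 (adjusted p = 0.047) for the Maml2 locus. XLOC_009134, inside the transcription factor gene Klf12, went the other way. It read 122, 137 and 164 CPM in WT and 83.9, 79.6 and 91.0 in KO, a change of -0.73 ± 0.099 (adjusted p = 4.2e-05) beside -0.74 for Klf12. XLOC_010652 lay in the RefSeq span of Lsamp, a neuronal surface adhesion protein, and is described with the runs below. XLOC_023257, upstream of Sirt4, contains the RefSeq small nuclear RNA genes Gm24265 and Gm24407. It had the highest authors' FPKM of these 8 loci, 74.2 in WT and 107 in KO, and rose by 0.52 ± 0.19 (adjusted p = 0.041).

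**Figure D1:**
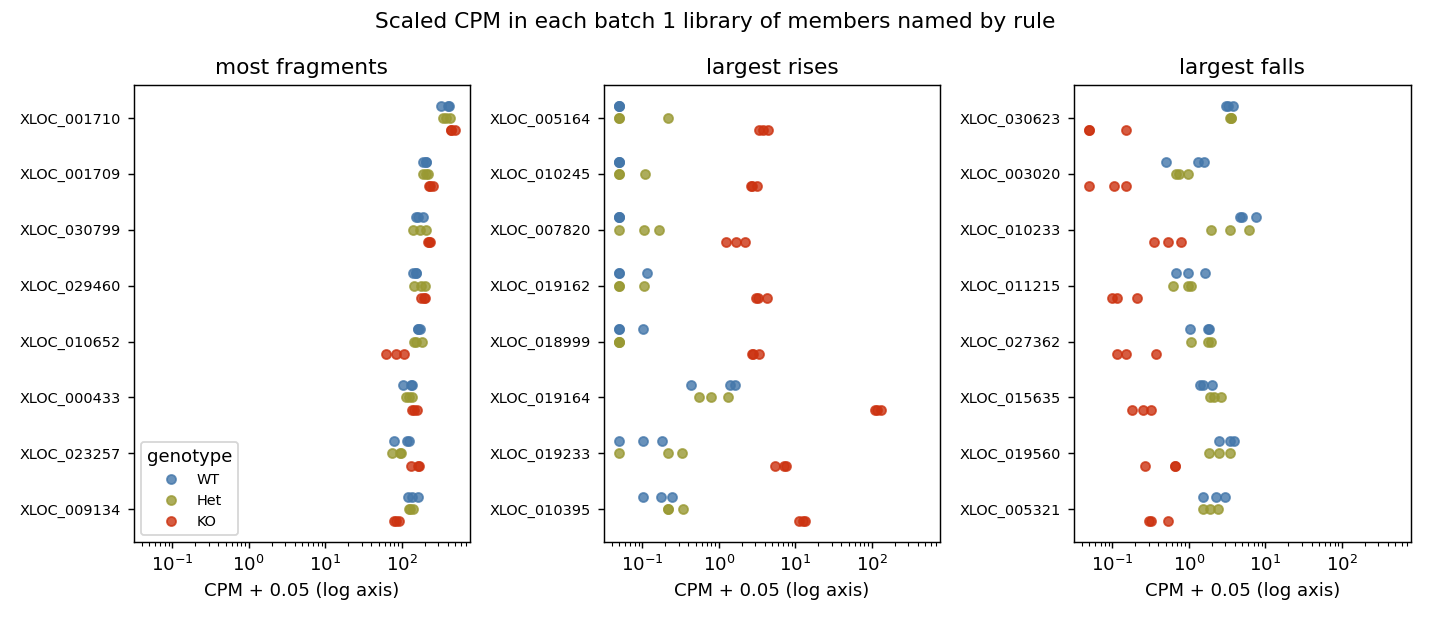
Scaled CPM (log axis, 0.05 added) of unnamed loci in each batch 1 library, coloured by genotype: the 8 with the most fragments, the 8 with the largest rises and the 8 with the largest falls among called loci that overlap a batch 3 locus. Het points sit with WT in the panel of rises, where WT libraries of 3 loci are at 0.

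Unnamed loci were mostly short, unspliced and low. The median exonic length was 1516 bases (range 78 to 41134, with 108 loci over 10 kb), 3462 had a single exon and 3434 had no strand. The median of the mean CPM was 1.17, with an upper quartile of 2.67 and a maximum of 408, against 30.8, 75.8 and 11500 for the 13690 known-gene loci past the same level. Most stood close to others: with gaps of at most 5 kb they formed 1980 runs, and 2338 of them were in runs of 2 or more. Chromosome 16 held 358, the most of any chromosome.

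Position was taken relative to the spans of loci with a known gene. Within such a span lay 869 unnamed loci (23.6%), within 5 kb outside one 1391 (37.8%, with 735 upstream and 656 downstream of the neighbour), at 5 to 50 kb 817 (22.2%) and beyond 50 kb 580 (15.8%). A further 19 shared exonic bases with a known-gene locus and 1 overlapped a span in part. The RefSeq table, which names further genes, overlapped 2141 of the 3677. A protein-coding gene was the main overlap for 1470, a long noncoding RNA for 529, a pseudogene for 116, and 1536 overlapped no RefSeq gene. Without strand, an overlap does not say that the RNA belongs to that gene.

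In batch 1 the share of RNA from unnamed loci was higher in KO. They took 0.969, 1.08 and 1.11% of each library's fragments in WT, 0.952, 1.07 and 1.20% in Het and 1.84, 1.92 and 1.93% in KO, so that the KO libraries stood apart and Het and WT overlapped. The means were 1.05% ± 0.072 (SD, n = 3), 1.07% ± 0.12 and 1.90% ± 0.053. Loci outside known-gene spans went from 0.692% ± 0.037 in WT to 1.40% ± 0.033 in KO, and those inside spans from 0.342% ± 0.038 to 0.476% ± 0.023. Loci inside RefSeq Lsamp went the other way, with 0.176, 0.167 and 0.161% in WT and 0.144, 0.0771 and 0.106% in KO. Batch 3 did not separate in this way: its own loci without a known gene took 0.381 and 0.352% in WT and 0.559 and 0.380% in KO, and those that match an unnamed locus of batch 1 took 0.151 and 0.139% in WT and 0.202 and 0.151% in KO. With 3 libraries against 3, an exact permutation test on 1 such value cannot go below p = 0.10, so none is given.

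**Figure D2:**
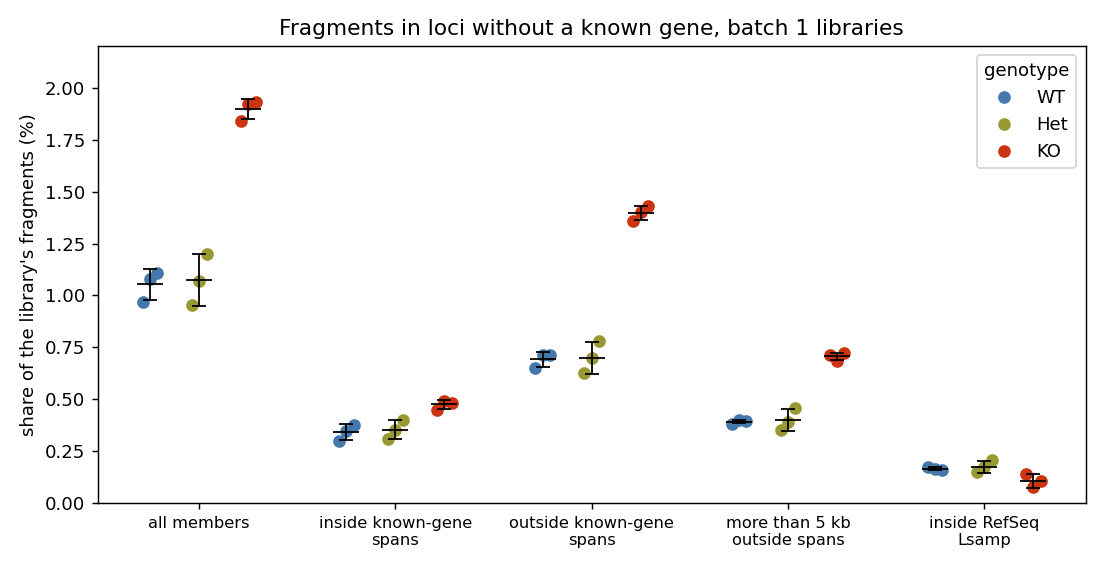
Share of each batch 1 library's assigned fragments (percent, vertical axis) that fell in unnamed loci, by position and genotype. Points are libraries, dashes the mean and bars the SD. KO libraries sit at 1.84 to 1.93% for all unnamed loci against 0.952 to 1.20% in WT and Het, and below WT for loci inside RefSeq Lsamp.

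Tested singly, unnamed loci rose in KO far more often than they fell. Of the 3652 that passed the low-count filter, edgeR's quasi-likelihood test with Benjamini-Hochberg adjustment over all 18329 loci called 1653 higher (45.3%) and 398 lower (10.9%) in KO than in WT at an adjusted p below 0.05. Over all tested loci the shares were 34.5% higher and 31.7% lower, and over known-gene loci 29.8% and 39.0%. The median log2 fold change was 0.58 for unnamed loci and 0.04 for all loci. Of all 3677 unnamed loci, 25 of them not tested, 1778 had every KO library above every WT library and 474 had every KO library below. Of the 18329 tested loci of any kind, 6831 (37.3%) and 6237 (34.0%) did. Scaling by library totals alone moved the median of all loci from 0.04 to 0.19 and that of unnamed loci from 0.58 to 0.73, so about the same gap remained between them. Counted by run, 988 held a rise and no fall, 201 a fall and no rise, 2 both and 789 neither. Of the 1980 runs, 1339 held a single locus and so could not hold both, which limits what the low count of mixed runs can show.

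The difference from known genes was present in each of 4 bands of expression. At a mean of 0.5 to 1 CPM, 42.0% of tested unnamed loci rose and 8.10% fell, beside 22.3% and 18.5% of known-gene loci. At 1 to 2 CPM they were 45.6% and 11.1% beside 25.9% and 25.3%, and at 2 to 10 CPM 49.6% and 11.5% beside 32.7% and 27.5%. At 10 CPM or more, 48.3% of 230 unnamed loci rose and 26.5% fell, beside 30.1% and 44.3% of 9910 known-gene loci. The 215 loci with 2 or more exons gave 127 rises and 27 falls (median 0.80).

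The balance of rises and falls differed by position. For comparison, 34.5% of all tested loci rose and 31.7% fell. Inside known-gene spans 255 of 863 tested loci rose (29.5%) and 104 fell (12.1%, median log2 fold change 0.24). Within 5 kb upstream of a gene 397 of 730 rose and 40 fell (0.85), and within 5 kb downstream 308 of 651 rose and 50 fell (0.73). At 5 to 50 kb downstream 292 of 467 rose and 44 fell (1.56), and at 5 to 50 kb upstream 185 of 343 rose and 22 fell (0.96). Beyond 50 kb the sides differed: downstream 135 of 225 rose and 55 fell (2.2), upstream 69 of 353 rose and 81 fell (-0.37). The 216 loci in RefSeq Lsamp, of which 94 fell and 1 rose, belong to these far classes. By RefSeq overlap, loci with none rose in 60.0% of 1524 tests and fell in 6.69%, those over long noncoding RNAs in 55.3% and 8.41%, and those over protein-coding genes in 26.2% and 16.0%. Rises inside spans, beyond 50 kb upstream (19.5%) and over protein-coding genes were thus no more frequent than among all tested loci, while falls were fewer.

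**Figure D3:**
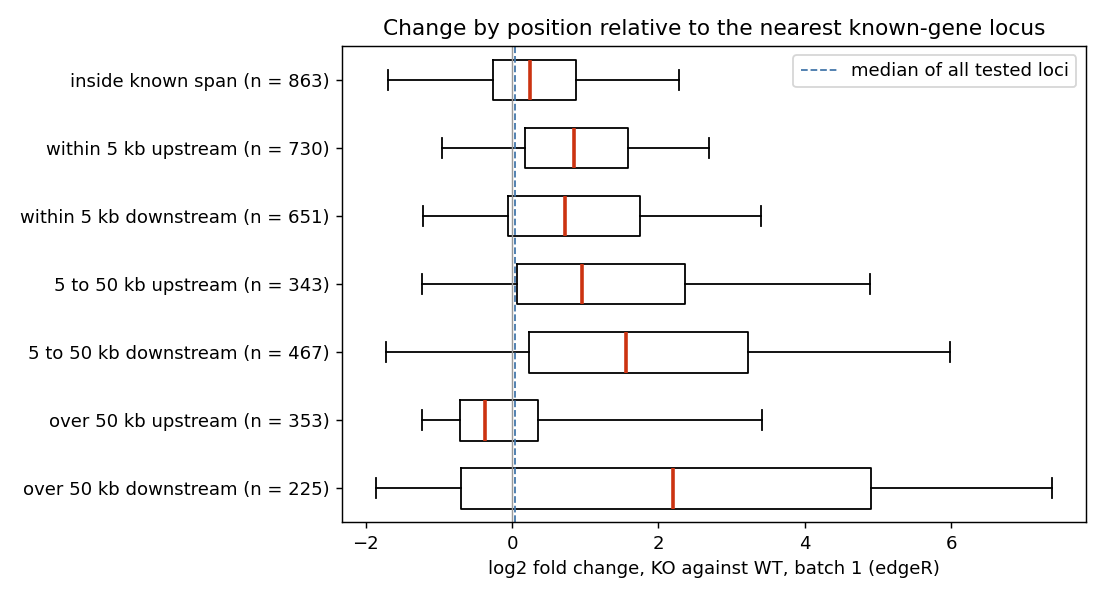
Log2 fold change of KO against WT in batch 1 for tested unnamed loci, by position relative to the nearest known-gene locus (boxes show quartiles, the line in each the median, whiskers the 5th and 95th percentiles). Medians lie above the dashed median of all loci in each class except beyond 50 kb upstream, where it is -0.37.

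Het libraries did not separate from WT. edgeR called 0 of 3652 unnamed loci, 234 of them (6.41%) had an unadjusted p below 0.05, and the median log2 fold change was -0.02. DESeq2 also called 0, with 171 below an unadjusted 0.05, and limma on log2(FPKM + 0.1) called 1, with 269 below. Over all loci edgeR called 2 of 18329 (0.0109%) in Het.

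The 8 largest rises among called loci with an overlapping batch 3 locus went from near 0. All but XLOC_019164 were below 0.5 CPM in every WT and Het library, so they passed the level limit through KO alone. A rise at these was fixed by the way they were chosen. XLOC_019164 (chr3:61462509-61488290), 83.5 kb downstream of Rap2b, a small GTPase gene, had the most fragments of these. It read 0.383, 1.58 and 1.36 CPM in WT, 0.509, 1.27 and 0.739 in Het and 116, 110 and 131 in KO (log2 fold change 6.72 ± 0.30, adjusted p = 1.4e-07 by edgeR). Every KO library was far above the other 6. XLOC_019162, in the same stretch, had 1 fragment in the WT libraries together and 182 in KO, a ratio of 173 (95% exact interval 30.6 to 6850, counting error only).

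XLOC_010395 (chr15:96241611-96245849), which lies wholly in the RefSeq long noncoding RNA 4833422M21Rik, read 0.128, 0.198 and 0.0523 CPM in WT and 11.2, 12.7 and 13.5 in KO (6.61 ± 0.30, adjusted p = 6.2e-09). Its neighbour E330033B04Rik rose by 1.49. XLOC_019233, 8.09 kb downstream of Slitrk3, a synaptic adhesion gene, had 3 WT and 353 KO fragments, a ratio of 112 (37.9 to 544), and XLOC_018999, 24.6 kb downstream of Pex2, had 1 and 155, a ratio of 147 (26.0 to 5840). Both genes rose less, by 1.12 and 0.46. In each of these loci the Het libraries stayed with WT.

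The other 3 had no fragment in any WT library. XLOC_005164 (chr11:3629887-3631458), 4.50 kb downstream of the long noncoding RNA gene Tug1, read 3.71, 3.29 and 4.33 CPM in KO, at least 63.2-fold higher than the 3 fragments over the whole WT group that a count of 0 allows, while Tug1 fell by 0.55 on the log2 scale. XLOC_010245, 5.50 kb downstream of Trps1, read 2.61, 3.07 and 2.66 CPM in KO and was at least 47.1-fold higher. XLOC_007820, upstream of the zinc finger gene Zfp58, read 1.61, 2.16 and 1.20 CPM in KO and was at least 28.4-fold higher. In all, 29 unnamed loci had no fragment in WT and 2 none in KO. Setting them at their bounds left the median at 0.58.

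The loci in this and the next paragraph are named after their values were seen. XLOC_025006 (chr6:107573461-107583576) began 127 bases downstream of Lrrn1, a leucine-rich repeat neuronal protein. It read 5.93, 8.51 and 6.80 CPM in WT, 4.70, 8.0 and 9.38 in Het and 202, 235 and 238 in KO (4.99 ± 0.23, adjusted p = 2.6e-07), and Lrrn1 itself rose by 1.78. XLOC_019159, 60 bases downstream of Rap2b, read 10.6, 16.0 and 15.2 CPM in WT and 204, 227 and 243 in KO (4.01 ± 0.13), beside 0.67 for Rap2b. In both cases the unnamed locus changed by more than the gene it follows.

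A further pair lay next to Mir9-2, which gives rise to the neural microRNA miR-9 shown above. XLOC_007864 (chr13:83744055-83758277) began 166 bases downstream of the locus of Mir9-2 and C130071C03Rik and read 28.9, 28.6 and 24.5 CPM in WT and 203, 182 and 192 in KO (2.82 ± 0.11). XLOC_007865, which follows it, read 23.0, 31.5 and 30.9 CPM in WT and 267, 246 and 253 in KO (3.16 ± 0.11). The Mir9-2 locus rose by 0.78. XLOC_001395 (chr1:42732275-42759067), 6.72 kb upstream of 2610207O16Rik and over part of the RefSeq long noncoding RNA Gm46091, read 3.63, 6.33 and 5.59 CPM in WT and 114, 153 and 150 in KO (4.74 ± 0.21). XLOC_032299, downstream of the synaptic adhesion gene Slitrk2 on chromosome X, read 2.61, 2.84 and 1.93 CPM in WT and 22.7, 21.3 and 22.4 in KO (3.18 ± 0.17).

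Falls were fewer than rises. The largest among called loci with an overlapping batch 3 locus was XLOC_030623 (chr9:101841770-101862504, minus strand, 2 exons), 59.6 kb downstream of the receptor gene Ephb1. It read 3.70, 2.97 and 3.24 CPM in WT, 3.45, 3.45 and 3.41 in Het and 0.1, 0 and 0 in KO, with 165 WT and 2 KO fragments, a ratio of 87.0 (23.7 to 725), while the change of Ephb1 (0.29) did not pass the test. XLOC_010233 (chr15:41446014-41447422), 60 bases upstream of Oxr1, an oxidation resistance gene, read 4.59, 4.95 and 7.37 CPM in WT and 0.301, 0.485 and 0.733 in KO (-3.51 ± 0.48, adjusted p = 7.4e-05), with -1.47 for Oxr1. XLOC_005321, 278 bases upstream of the kinase gene Mapk7, read 1.47, 2.24 and 2.88 CPM in WT and 0.251, 0.485 and 0.266 in KO (-2.69 ± 0.39), while Mapk7 rose by 0.61.

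The remaining falls of the 8 were all at most 3.87 CPM in any library. XLOC_003020, downstream of Ulbp1, had 55 WT and 3 KO fragments, a ratio of 19.3 (6.28 to 96.6), and XLOC_011215, inside the RefSeq span of the glutamate receptor gene Grin2a, changed by -3.41 ± 0.59. XLOC_027362, upstream of Ccdc8, changed by -3.11 ± 0.52, XLOC_015635, a locus of 3 exons, by -2.91 ± 0.38 and XLOC_019560, which overlaps no RefSeq gene, by -2.77 ± 0.38. Grin2a, Ulbp1 and Ccdc8 also fell, with log2 fold changes of -2.18, -3.17 and -3.96. At higher level and named after its values were seen, XLOC_010750 (chr16:91220645-91225379), 171 bases upstream of the oligodendrocyte lineage factor gene Olig2, read 20.3, 22.6 and 23.8 CPM in WT and 14.6, 15.4 and 16.1 in KO (-0.53 ± 0.11, adjusted p = 0.00087), beside -0.95 for Olig2. XLOC_001477, which contains the small nuclear RNA gene Gm25360, read 141, 161 and 169 CPM in WT and 78.0, 36.1 and 51.6 in KO (-1.51 ± 0.25, adjusted p = 0.0013).

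Unnamed loci and their nearest known-gene loci were read from the same libraries, so their changes are described without a test. Across 3456 pairs with both tested, which involve 1472 neighbours, the log2 fold changes had a Pearson r of 0.49 and a Spearman rho of 0.48. The r was 0.70 within 5 kb downstream, 0.69 inside spans, 0.43 within 5 kb upstream and 0.05 beyond 50 kb downstream. The median unnamed locus changed by 0.65 more than its neighbour on the log2 scale within 5 kb downstream, by 0.87 more within 5 kb upstream and by 0.16 more inside spans. Of 1939 called loci in these pairs, 1023 rose with a neighbour that rose, 234 rose beside one that fell, 218 fell with one that fell and 120 fell beside one that rose. Of the 234, 104 lay within 5 kb upstream of the falling gene and 32 within 5 kb downstream of it.

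There were 14 runs of 13 or more loci, chosen for their number of members. The longest covered 626 kb (chr16:39984384-40610176) at the 5′ side of RefSeq Lsamp, upstream of the known-gene locus Lsamp of the authors' assembly. Of its 75 loci 62 fell (range of log2 fold changes -1.35 to -0.21, median -0.86). Summed over the run, the libraries read 1440, 1340 and 1290 CPM in WT, 1190, 1340 and 1570 in Het and 999, 515 and 727 in KO, with all KO libraries below the rest. The named Lsamp locus changed by 0.29 (adjusted p = 0.04), in the other direction. A further 3 Lsamp runs of 28, 23 and 16 loci had 12, 6 and 1 falls and medians of -0.55, -0.64 and -0.50. XLOC_010652, the Lsamp locus with the most fragments, read 175, 166 and 163 CPM in WT and 106, 62.8 and 85.0 in KO (-0.99 ± 0.17, adjusted p = 0.0011).

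Runs at other genes differed from each other. In Ank2, which encodes a membrane scaffold of neurons and heart, 23 of 24 loci rose (median 1.17) and the run went from 198 ± 18 CPM (SD, n = 3) in WT to 410.0 ± 70 in KO, while the Ank2 locus fell by 0.37 on the log2 scale (adjusted p = 0.0003). In Creb5, a transcription factor gene, 12 of 13 loci fell (median -2.46), with 45.1, 43.9 and 55.2 CPM in WT and 12.8, 6.74 and 6.13 in KO, beside -1.94 for the known locus. In Klf12 10 of 16 fell (-0.49), in Inpp4b, a phosphoinositide phosphatase gene, 12 of 13 rose (1.55), by Rab11fip2 16 of 16 rose (1.70), and in Kalrn 11 of 13 rose (0.76) while the change of the known locus (-0.18) did not pass the test. The 2 runs of 21 loci at Nav3 had 0 calls by edgeR and by DESeq2 (1 and 2 loci with an unadjusted edgeR p below 0.05), with medians of -0.24 and -0.37.

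A pair of runs was low outside KO. At such levels a locus could pass the limit of 0.5 CPM through its KO libraries, so these rises are not independent of the choice of loci. The run at chr7:51733825-51798594, nearest to the DNA repair gene Fancf, summed to 1.40, 1.38 and 1.20 CPM in WT, 0.962, 1.90 and 1.19 in Het and 92.7, 81.9 and 84.3 in KO. All 16 of its loci rose, by 4.01 to 7.90 on the log2 scale, beside 0.48 for Fancf. The run at chr1:98604432-98766196, nearest to Slco6d1, summed to 8.16, 17.5 and 15.5 CPM in WT, 14.3, 17.0 and 19.4 in Het and 178, 167 and 175 in KO, and all 18 of its loci rose (median 3.88). Het values lay with WT in both.

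**Figure D4:**
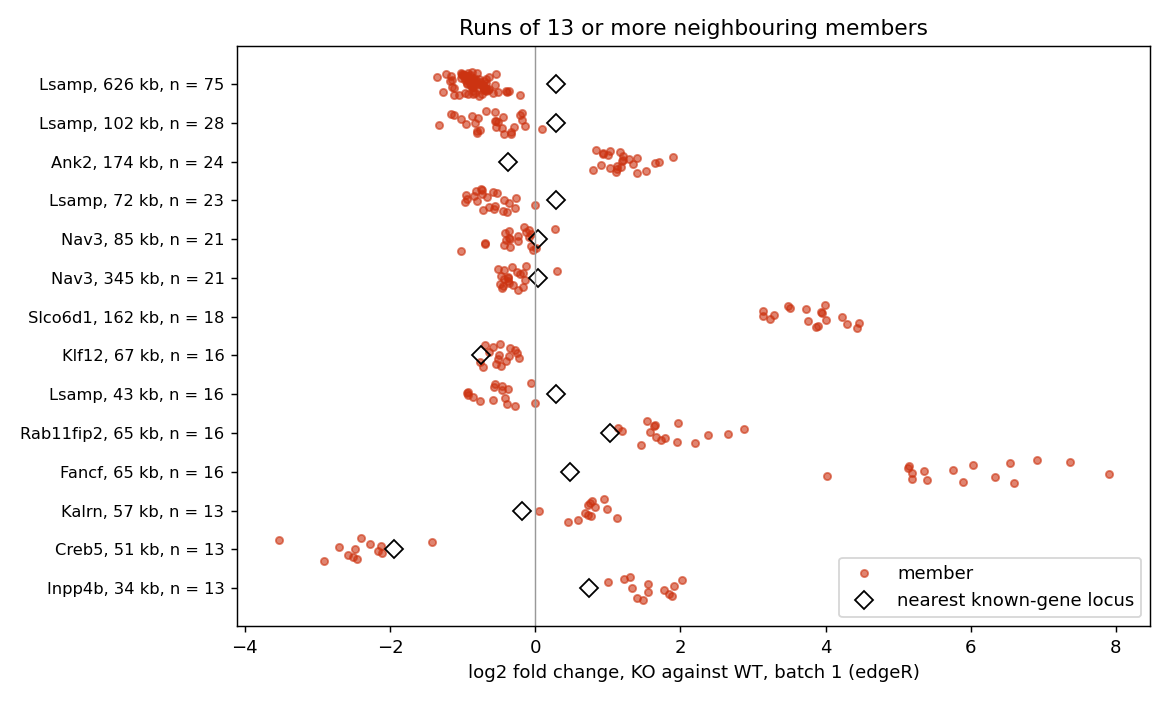
Log2 fold change of KO against WT in batch 1 for each locus (points) of the 14 runs of 13 or more unnamed loci, named by the nearest known-gene locus, with its change as a diamond where it was tested. Points of a run lie together: below 0 for most Lsamp, Klf12 and Creb5 loci, at 4.01 to 7.90 for the run nearest to Fancf, and around 0 at Nav3.

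Batch 3 used other lines and its own assembly, in which 807 of the unnamed loci shared exonic bases with a locus, 329 of them over at least 50% of their bases. Of the 807, 746 matched batch 3 loci without a known gene (737 distinct loci) and 61 matched loci with one (55 distinct), and 532 could be tested. The edgeR test in batch 3 called 101 of them higher (19.0%) and 41 lower (7.71%) in KO, where over all 14236 loci it called 17.0% higher and 13.2% lower, and their median log2 fold change was 0.13 beside 0.01. The share of matched loci that rose is near that of all loci. The count of falls rests on single libraries: without WT library 1 it was 24, without WT library 2 it was 17 and without KO library 1 it was 67. Without WT library 2 the rises came to 61.

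Of 246 loci called higher in batch 1 and tested in batch 3, 91 were called higher, 2 lower and 153 neither, and of 61 called lower 23 were called lower, 2 higher and 36 neither. The changes had a Pearson r of 0.73 across the loci tested in both batches, which are not independent of each other. XLOC_025006 downstream of Lrrn1 read 0.995 and 0.808 CPM in WT and 52.6 and 25.6 in KO in batch 3 (log2 fold change 5.42 ± 0.43, adjusted p = 0.00046 by edgeR), from a match over 50.5% of its bases. XLOC_019162 read 0 and 0 CPM in WT and 3.09 and 3.10 in KO, at least 31.9-fold higher. XLOC_030623 read 3.30 and 3.23 CPM in WT and 0.0657 and 0.230 in KO (-4.35 ± 0.60, adjusted p = 0.0024), and XLOC_010233 changed by -3.79 ± 0.50 (adjusted p = 0.002). For these loci the groups of both batches did not overlap and the direction was the same.

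Further named loci were called in batch 3 in the direction of batch 1. XLOC_018999 was at least 23.4-fold higher, XLOC_005321 changed by -1.65 ± 0.32 and XLOC_010750 by -1.20 ± 0.23, from matches over 68.2%, 99.0% and 53.3% of their bases. XLOC_019560 changed by -2.15 ± 0.67, XLOC_019159 by 1.25 ± 0.31, XLOC_032299 by 3.45 ± 0.78 and XLOC_001395 by 5.19 ± 0.69. For these the batch 3 loci covered only 27.2%, 11.1%, 37.5% and 8.5% of the bases, so the values do not speak for the whole locus. XLOC_026587, which covers the RefSeq zinc finger gene Zfp141 whose promoter is shown above, rose by 0.61 ± 0.09 in batch 1 (24.3, 26.2 and 25.9 CPM in WT, 39.6, 35.1 and 41.6 in KO) and by 0.79 ± 0.16 in batch 3 (23.8 and 24.0, 43.5 and 39.0). XLOC_000648, at the start of D730003I15Rik, rose by 1.46 ± 0.15 in batch 1 and 1.46 ± 0.45 in batch 3, from a match over 12.5% of its bases. Both XLOC_026587 and XLOC_000648 were chosen among loci called in the same direction in both batches, which fixed their shared direction. XLOC_007820 matched a batch 3 locus of the known gene Zfp87, so its batch 3 value (1.32 ± 0.20) is that of the Zfp87 locus.

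Other named loci were not called in batch 3. XLOC_007864 by Mir9-2 changed by 1.34 ± 0.57 (adjusted p = 0.11 by edgeR), XLOC_005120 by Bahcc1 by 0.54 ± 0.31 (adjusted p = 0.23), XLOC_011215 in Grin2a by -1.71 ± 0.72 (adjusted p = 0.11) and XLOC_015635 by -0.88 ± 0.53 (adjusted p = 0.25). The batch 3 loci covered only 10.1%, 14.8%, 41.2% and 40.1% of their bases, in that order. Among the 8 largest rises, XLOC_005164, XLOC_010245, XLOC_019164, XLOC_019233 and XLOC_010395 matched batch 3 loci too low to be tested. These matches covered 24.8%, 13.6%, 2.1%, 13.6% and 8.4% of their bases, so neither set of values speaks for the whole loci. The libraries overlapped at 3 of the untested matches: XLOC_005164 read 0 and 0 CPM in WT and 0.723 and 0 in KO, XLOC_019233 0 and 0 against 0.920 and 0, and XLOC_010395 0.0622 and 0.0673 against 0.0657 and 0.977.

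Matches of a few bases limit some comparisons. XLOC_010651, whose start is the Lsamp promoter shown above, fell in batch 1 (125, 122 and 121 CPM in WT, 86.0, 50.2 and 64.9 in KO, log2 fold change -0.87 ± 0.18, adjusted p = 0.0029) and rose in batch 3 (0.560 and 0.539 CPM in WT, 2.04 and 1.61 in KO, 1.71 ± 0.49, adjusted p = 0.034). The batch 3 locus covered 1.30% of its bases. A total of 4 unnamed loci were called in opposite directions, and the other 3, beside Ccdc37, Atxn2l and Ing1, matched loci of those known genes.

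**Figure D5:**
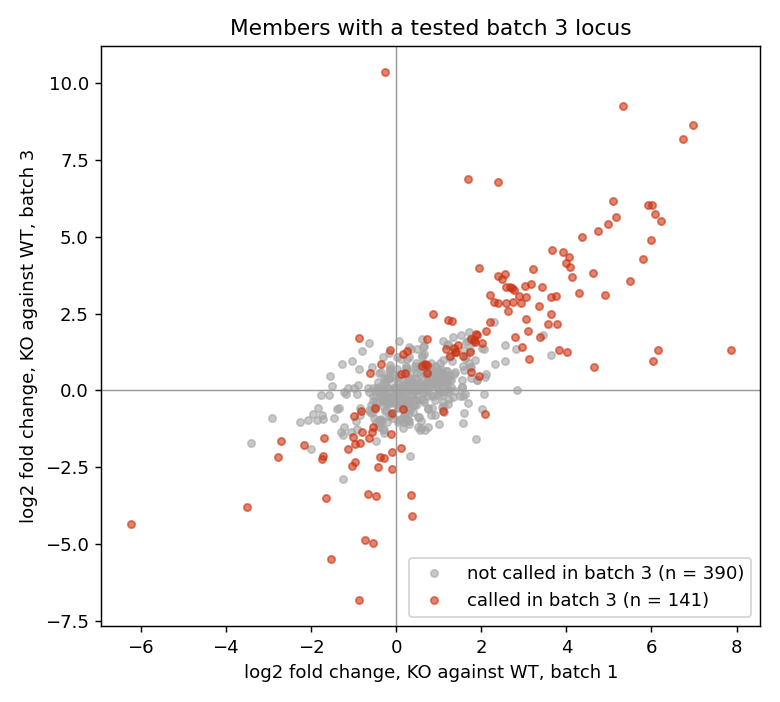
Log2 fold change of KO against WT in batch 1 (horizontal) and batch 3 (vertical) for unnamed loci tested in both, with those called in batch 3 in red. Of the loci called in batch 3, most lie in the quadrants of equal sign.

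H3K27ac peaks lay within 2 kb of the 5′ end of fewer unnamed loci than known genes, although an unnamed locus without strand was given a window at each end. The lists of the WT lines 532 and 541 marked 1635 (44.5%) and 1462 (39.8%) unnamed loci, and those of the KO lines 530 and 534 marked 1404 (38.2%) and 1433 (39.0%), against 87.5 to 90.7% of known-gene loci. Both WT lines marked 1359 and both KO lines 1274. The H3K27ac lists differed in size, with 80947 and 55130 peaks in WT and 55633 and 63189 in KO, and the counts are not corrected for it. The share differed by position: 56.1% within 5 kb of a known gene, 33.0% inside spans, 24.1% at 5 to 50 kb and 13.8% beyond 50 kb were marked in both WT lines. Near a known gene the window can take in a peak at that gene, and such peaks were not counted apart. Loci marked in all 4 lines and in none had RNA changes with medians of 0.58 (530 rises and 107 falls of 1203) and 0.57 (806 and 190 of 1812).

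Few loci carried H3K27ac in 1 genotype alone. Of 77 unnamed loci with H3K27ac in both WT lines and neither KO line, 46 rose and 7 fell in KO (median 1.06). The 101 known-gene loci of that kind had 17 rises and 47 falls (median -0.46). Whatever the mark, 45.3% of tested unnamed loci rose and 10.9% fell, beside 34.5% and 31.7% of all tested loci. Of 17 unnamed loci marked in both KO lines and neither WT line, 7 rose and 3 fell (median -0.03), beside 14 and 4 of 28 known-gene loci (0.72). These are counts without a test of the difference, and neighbouring loci can be marked by the same peak. The marked lines are those of batch 3 and the RNA is that of batch 1.

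Among the loci marked in WT only, the largest changes were at XLOC_005164 and XLOC_005163 near Tug1, XLOC_010383 near Gm4371, XLOC_024856, 8.41 kb downstream of the innate immune regulator gene Tril, and XLOC_006533 in the span of Arl4a. All 5 were higher in KO. Each was below 0.5 CPM in every WT and Het library and so passed the level limit through KO alone, which fixed the direction. XLOC_024856 read 0, 0.0659 and 0 CPM in WT and 3.96, 6.58 and 6.13 in KO, with 1 and 293 fragments, a ratio of 278 (49.5 to 11000). XLOC_010383, XLOC_005163 and XLOC_006533 had no WT fragment and were at least 30.3-fold, 26.9-fold and 21.8-fold higher. Both Tug1 loci also had H3K27me3 in all 4 lines. Their peaks of both marks had equal fold enrichments in each line, so the 2 loci are not separate observations.

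Among those marked in KO only, 4 rose: XLOC_019399, 2.98 kb downstream of the receptor gene Notch2 (3.86 ± 0.50, with Notch2 at 1.80), XLOC_029421 by Irf2bp2 (3.64 ± 0.33), XLOC_009146 by the endothelin receptor gene Ednrb (3.02 ± 0.52) and XLOC_010312 by 1110038F14Rik (2.77 ± 0.38). XLOC_029421 read 0.638, 0.330 and 0.471 CPM in WT and 6.37, 5.55 and 6.33 in KO. XLOC_019399, XLOC_029421 and XLOC_009146 had WT and Het means below 0.5 CPM, so they passed the level limit through KO. XLOC_010312 was also called in batch 3, with 0.249 and 0.337 CPM in WT and 3.94 and 1.78 in KO. XLOC_024939, inside RefSeq Iqsec1, fell (-2.80 ± 0.48), from 1.28, 1.06 and 0.941 CPM to 0.0502, 0.270 and 0.133. Its Het and KO means (0.494 and 0.151 CPM) were below 0.5 CPM, so it passed the level limit through WT.

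H3K27me3 was rare at unnamed loci. Its lists also differed in size, with 58863 and 33188 peaks in the WT lines 532 and 541 and 43186 and 59561 in the KO lines 530 and 534. The 4 lists marked 226 and 152 of them in WT and 228 and 292 in KO (4.13 to 7.94%, against 13.9 to 18.0% of known-gene loci), with 105 in both WT lines and 141 in both KO lines. The 73 marked in all 4 lines had 46 rises, 3 falls and a median of 1.68. The 3198 unnamed loci marked in no line also had more rises (1391) than falls (349), with a median of 0.54. Over all tested unnamed loci 45.3% rose and 10.9% fell, and over all tested loci 34.5% and 31.7%. The 1317 known-gene loci marked in all 4 lines had 395 rises, 430 falls and a median of -0.05. Both marks together, in both WT lines, were found at 62 unnamed loci (1.69%) and 8.86% of known-gene loci.

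The 5 loci with the most fragments among the 73 also had H3K27ac in all 4 lines. XLOC_001643 (chr1:119422446-119428293), 198 bases upstream of Inhbb, which encodes an activin subunit, read 2.87, 4.55 and 3.45 CPM in WT and 20, 28.0 and 22.4 in KO (2.70 ± 0.27, adjusted p = 5.2e-06), beside 0.84 for Inhbb. XLOC_001121, which overlaps exons of Stx6 and the RefSeq gene BC034090, rose by 0.68 ± 0.17, XLOC_011320 in RefSeq Kalrn by 0.59 ± 0.15 and XLOC_006698, 115 bases upstream of Gm266, by 1.59 ± 0.29. XLOC_029314, in the long noncoding RNA D030068K23Rik, read 5.29, 7.06 and 6.59 CPM in WT and 5.32, 9.16 and 10.3 in KO, which did not pass the test (adjusted p = 0.15). In batch 3 it read 3.42 and 2.02 CPM in WT and 0.131 and 0.172 in KO (-4.09 ± 0.62, adjusted p = 0.0033), over 41.8% of its bases.

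Few unnamed loci had m6A peaks in WT cells. Peaks were present in all 4 lists (2 immunoprecipitates against 2 inputs) for 108 of 3677 (2.94%) and in none for 3446, against 5958 of 13690 known-gene loci (43.5%) in all 4. At 10 CPM or more the shares were 23 of 230 (10.0%) and 52.4%. At that level 16 of 37 with 2 or more exons (43.2%) and 7 of 193 with 1 exon (3.63%) had peaks in all 4 lists. By position, 5 of 869 loci inside known-gene spans and 76 of 1391 within 5 kb had them. Of the 107 tested loci with peaks in all 4 lists, 36 rose (33.6%, near the 34.5% of all loci) and 17 fell in KO (15.9%, median 0.15), and of the 3422 tested loci without a peak 1561 rose (45.6%) and 372 fell (10.9%, median 0.62). Known-gene loci had 2276 rises and 2046 falls with peaks in all 4 lists, and 1087 and 1625 without a peak. The peaks are from WT only, so no change of m6A in KO was measured.

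The 5 loci with the most fragments among those with m6A in all 4 lists and no exon shared with a known-gene locus were assembled with 2 or more exons. XLOC_004212 (chr11:119392731-119488982) has 68 exons, and RefSeq Rnf213, a large ubiquitin ligase gene, covers 98.4% of it. It read 85.4, 91.9 and 89.3 CPM in WT and 102, 82.0 and 91.7 in KO, which overlap (log2 fold change 0.05 ± 0.077), with peaks at 5.56 to 7.65-fold enrichment by the authors' caller. XLOC_005120 (chr11:120205270-120232142, minus strand), 636 bases upstream of Bahcc1, read 43.1, 49.1 and 41.4 CPM in WT and 177, 198 and 202 in KO (2.11 ± 0.086, adjusted p = 2.8e-09) and had peaks at 4.13 to 4.89-fold. Bahcc1 rose by 1.15.

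XLOC_007475 (chr13:62664420-62705786), mostly over the RefSeq noncoding gene Platr25, rose from 27.9, 34.4 and 32.4 CPM to 62.6, 61.4 and 68.8 (1.03 ± 0.093). XLOC_004338 (chr11:27989077-28028805), which overlaps no RefSeq gene and lies 357 kb downstream of Ccdc85a, read 103, 76.6 and 72.4 CPM in WT and 126, 72.0 and 104 in KO, which overlap. In batch 3 a match over 9.60% of its bases rose by 1.28 ± 0.19 (adjusted p = 0.003). XLOC_010651 at the Lsamp start is the fifth, with peaks at 4.33 to 5.16-fold. Among the large falls XLOC_010233 by Oxr1 and XLOC_027362 by Ccdc8 had peaks in all 4 lists, and XLOC_030623 in 3.

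The level limit of 0.5 CPM fell among loci of like values. The 3 just above it were XLOC_029350 and XLOC_021461, at 0.5002 CPM, and XLOC_022982, at 0.5003, and the 3 just below were XLOC_005475 and XLOC_006553, at 0.4998, and XLOC_007702, at 0.4997. XLOC_029350 read 0, 0.0659 and 0.209 CPM in WT and 0.903, 0.970 and 1.53 in KO, so that it passed through its KO libraries, and XLOC_021461 likewise. XLOC_022982 was not tested for its low counts, as were 24 further loci. A locus that passes by its level in 1 genotype had to differ between genotypes, which bears on every count of rises or falls at low level.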

How the data were processed

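The loci, the lists and the tests were chosen with earlier results of these data known. TopHat2 2.1.0, Cufflinks, Cuffdiff, TopHat, MACS2 and Bowtie2 2.3.1 are named with the build mm10, per the submitters' processing notes, without their roles. Raw fragments of every locus in every library, per the file headers of the deposited tables, are estimated counts (5.31% of batch 1 and 2.31% of batch 3 values were not whole within 1e-09) and were rounded here. The authors' FPKM in the same tables were used for levels per length and in limma. Exon positions and gene names came from the authors' deposited assemblies (other values: start and end coordinates). Per the file headers and format, the deposited peak lists give each peak a score, a fold enrichment over input (ratio) and a −log10 q value. The depth behind the peaks is unknown. The batch 2 table is a copy of that of batch 1, so the 6 batch 2 libraries were not analysed here.

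Each batch was fitted over all its loci (18329 and 14236 after the default filter) with edgeR 4.0.16, TMM factors (0.946 to 1.08 in batch 1) and the robust quasi-likelihood test, two-sided, with Benjamini-Hochberg adjustment over all loci. All adjusted p-values of single loci are from it. Batch 1 was fitted with all 3 genotypes, batch 3 with both. Tested on simulated counts, the fit recovered 41% of loci changed 1.5-fold and 67% of those changed 2-fold in batch 1 (100 each among 18329 loci), and 22% and 60% in batch 3. CPM of single libraries carry the TMM factors, shares and the 0.5 CPM limit do not. Errors after ± are SE for log2 fold changes and SD otherwise. Floors of 3 fragments are over the group, and exact 95% intervals cover counting error only, since PCR copies are not independent molecules. Nothing in the labels says how independent the lines of a genotype are, so p-values measure the spread between these lines. Overlap with RefSeq used GRCm38.p6, the build of mm10: 98.59% of 21695 known-gene loci overlapped the RefSeq gene of the same symbol. A 5′ window was 2 kb to each side, at both ends where strand was unknown.

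Loci named in the text are the 8 with the most fragments, the 8 largest rises and 8 largest falls among called, non-overlapping loci with a batch 3 match and a group mean of at least 1 CPM, the 5 most abundant with m6A in all 4 lists or with H3K27me3 in all 4 lines, the 5 largest changes with H3K27ac in 1 genotype only, any called in Het (0) and the 3 to each side of the level limit. Others are said to be named after their values were seen. Sequence features of exons were not analysed here, since no genome was at hand. The alternatives tried are in the closing section.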

Additional observations from a re-analysis of the deposited data

Results flagged for a closer look

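XLOC_010651, the unnamed locus that starts at the RefSeq Lsamp promoter, moved in opposite directions in the 2 batches. Every KO library was below every WT library in batch 1 (log2 fold change -0.87) and above in batch 3 (1.71). The difference between the batches was not tested. The batch 3 locus it was matched to covered 1.30% of its exonic bases and read at most 2.04 CPM, against 121 to 125 CPM for XLOC_010651 in the WT libraries of batch 1.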

How the results depend on the processing

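The counts of unnamed loci higher and lower in KO in batch 1 stayed within 1.5 times of 1653 and 398 under other scaling, filters, tools and samples, with 1462 to 1572 rises and 329 to 418 falls when 1 library was left out, and fell to 681 and 202 over loci more than 5 kb outside known-gene spans, by construction. Without the Lsamp loci the direction was the same. With limma 1 locus was higher in Het. In batch 3, matching by at least 50% of bases left 55 rises and 26 falls, and leaving out 1 library gave 61 to 151 rises and 17 to 67 falls; the cause was not tested. With H3K27me3, a window of 5 kb gave 187 loci in both WT and 231 in both KO lines, a −log10 q of at least 2 gave 65 and 80, and single lines marked 152 to 226 in WT and 228 to 292 in KO. H3K27ac counts stayed within 1.5 times. A peak in at least 1 m6A list was found at 231 loci, and leaving out the lists of either immunoprecipitate changed the count by less than 1.5 times. Limits of 0.25 and 1 CPM gave 6107 and 2096 loci, and 215 had 2 or more exons. No paired analysis was possible because the tables number libraries within a group and do not tie them to lines. The planned look at exon sequence was not run. Depth limits the low loci: 25 were not tested. Alternatives on library totals alone, on distance, on Lsamp and on matches to loci without a known gene were chosen after seeing the data.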
